A study of Mus musculus with 54 samples.

Results

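Naive CD4+ T cells lacking both CD5 and CD6 were compared with naive CD4+ T cells lacking CD5 alone, 20 h after activation, to see what loss of CD6 adds once CD5 is already missing. The comparison holds 6 of the 54 samples of the series, 3 libraries per genotype, and takes them by their labelled genotype and time. The cells were purified from lymph nodes and spleens of mice of C57BL/6 background and stimulated with plate-bound anti-CD3 (3 µg/ml) plus anti-CD28 (1 µg/ml), and poly(A) RNA was sequenced. The 6 libraries belong to an experiment of 36 libraries in which WT, Cd5-/-, Cd6-/- and Cd5-/-Cd6-/- cells were profiled at 0, 4 and 20 h. The libraries at 4 h, and those of Cd6-/- and WT cells at 20 h, are used here only to set the 20 h values beside them.

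Both groups lack CD5, but the 2 lines were made in different ways. The Cd5-/- line was made by earlier gene targeting and backcrossed to C57BL/6. The Cd5-/-Cd6-/- line carries a single deletion reaching from exon 1 of Cd5 to exon 1 of Cd6, made with CRISPR/Cas9 in C57BL/6 embryos, and therefore lacks whatever lies in between. The Cd6-/- line carries a different, short deletion at the start of Cd6. Each of the CRISPR lines is 1 selected allele. The mice were young adults according to the study's methods. The labels do not say which libraries came from separate mice, so the p-values below measure the spread between libraries. In the main fit that spread was estimated over all 36 libraries of the experiment, not over the 6 compared alone.

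CD5 and CD6 are neighbouring, related genes for surface receptors of the scavenger receptor cysteine-rich family, expressed by T cells. CD5 is best known as a brake on signalling by the TCR. CD6 binds CD166 (Alcam) and CD318 (Cdcp1) on other cells, becomes phosphorylated on its cytoplasmic tail after TCR engagement, and has been described both as a costimulatory and as an inhibitory receptor, which is the uncertainty the comparison addresses.

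The guides used to make the alleles are shown because they mark the region that each pair was aimed at. The deletions that were then selected need not end where the guides lie, and their sequenced boundaries are not given here. They were read from the study's oligonucleotide list and placed by matching to GENCODE transcripts of the GRCm38 genome, and each is written 5′ to 3′ with the PAM in capitals. The double knockout used CD5-1 and CD6-1, and the Cd6-/- line used CD6-1 and CD6-2.
CD5-1: cagcacttcgtgggagtccaTGG
CD6-1: ggagacggttgtgccaccgaTGG
CD6-2: ccaaggaagagccacatgtcTGG
CD5-1 lies at chr19:10738826-10738848 in exon 1 of Cd5, across the 5′ UTR and the start codon. CD6-1 lies at chr19:10829917-10829939 in the 5′ UTR part of exon 1 of Cd6, and CD6-2 at chr19:10829840-10829862 covers the start codon in the same exon. All 3 read along the plus strand, whereas both genes are on the minus strand. CD5-1 and CD6-1 enclose 91068 bases, with exons of 3 annotated genes. These are part of exon 1 of Cd5, the whole of A430093F15Rik (a non-coding transcript on the plus strand, chr19:10740947-10786043), and Cd6 up to its first exon, with 12 of the 13 exons of transcript Cd6-203 wholly inside. CD6-1 and CD6-2 start only 77 bases apart, and the deletion selected for the Cd6-/- line extends beyond that stretch.

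The 3 Cd5-/-Cd6-/- libraries held 27307849 to 34480997 counts assigned to genes and the 3 Cd5-/- libraries 22434312 to 41571768. They had between 17989 and 19103 genes with at least 1 count, and mitochondrial genes took 0.371 to 1.03% of the counts, over the same range in both genotypes. Replicates of a genotype differed by far more than counting noise (chi-square per degree of freedom 24.9 to 126 over the 6 replicate pairs), so none was counted as a duplicate. Expression is given below as CPM, the counts of a gene scaled to a common total after TMM adjustment of each library, a scale that is not corrected for gene length. In these 6 libraries 3 counts correspond to 0.0722 to 0.134 CPM, a limit that covers counting error only. In bulk RNA, fewer cells expressing a gene and less RNA per cell cannot be told apart. At 0 h, 1 library labelled Cd5-/- and 1 labelled Cd6-/- had Cd5 and Cd6 levels that go against their labels. They enter the present comparison only through the spread shared by the 36 libraries.

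The targeted genes followed the labels in all 6 libraries. Cd6 stood at 0.474, 0.448 and 0.552 CPM in Cd5-/-Cd6-/- replicates 1, 2 and 3 and at 1190, 1310 and 1330 CPM in Cd5-/- cells. The groups were far apart, Cd5-/- cells having 2640 times the Cd6 counts of double-knockout cells (95% exact binomial counting interval 1980 to 3610). Cd5 stood at 0.237, 0.598 and 0.663 CPM in Cd5-/-Cd6-/- cells and at 12.5, 13.9 and 11.4 CPM in Cd5-/- cells. Cd5 RNA was thus detected at a low level in Cd5-/- cells and was 26 times lower in double-knockout cells (interval 19.4 to 35.8). For scale, WT cells at 20 h held 1000, 1260 and 1140 CPM of Cd5. Cd6 stood at 937, 1130 and 1040 CPM in these WT libraries, all below the Cd5-/- libraries. The fitted difference, 0.30 ± 0.26 (SE) higher on the log2 scale in Cd5-/- cells, was not called (adjusted p = 1 by edgeR's quasi-likelihood test). Its SE rests on the spread of the 36 libraries, including those at 0 h whose Cd6 level went against the label. The study reports raised CD6 protein on Cd5-/- T cells.

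In the whole comparison 9 of 32290 genes tested (0.0279%) differed, 2 being higher (0.00619%) and 7 lower (0.0217%) in Cd5-/-Cd6-/- than in Cd5-/- cells. The test was edgeR's quasi-likelihood test, and a gene was called at a Benjamini-Hochberg adjusted p below 0.05 and a fold change above 2. The 3 libraries of a genotype did not overlap with those of the other for any of the 9, where 1.48% of the genes averaging 10 counts or more lay apart with Cd5-/-Cd6-/- cells higher and 2.33% with them lower. At an unadjusted p below 0.05 there were 480 genes, 1.49% of those tested. The 7 genes that were lower were Cd6, Cd5, A430093F15Rik, Slc15a3, Tmem132a, Gm8116 and Wdfy1, and the 2 that were higher were Carnmt1 and 1110059E24Rik. Leaving the 2 doubted 0 h libraries out of the fit gave 14 genes, the same 9 together with Ccl22, Rsad2, Gm2682, Cst6 and Orm2.

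**Figure D1:**
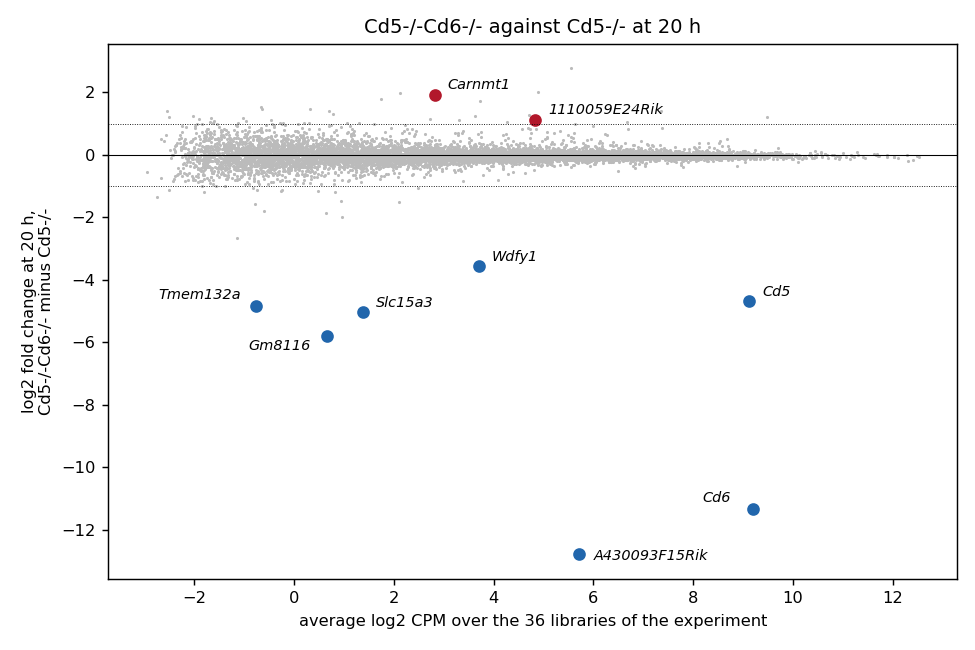
Log2 fold change between Cd5-/-Cd6-/- and Cd5-/- cells at 20 h (y axis, positive when higher in Cd5-/-Cd6-/-) against average log2 CPM over 36 libraries (x axis), 1 point per gene averaging 10 counts or more in the 6 libraries, with dotted lines at a fold of 2. The 9 called genes are named (blue lower, red higher), and A430093F15Rik, at -12.79, lies lowest.

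A430093F15Rik, whose whole annotated region lies between the guides of the double knockout, was at 0, 0.0299 and 0 CPM in Cd5-/-Cd6-/- cells and at 89.8, 91 and 126 CPM in Cd5-/- cells. A single count was found in the 3 double-knockout libraries together, against 10085 in the 3 Cd5-/- libraries, a ratio of 9750 with a counting interval of 1750 to 385000. Its level was 80, 85.9 and 85.8 CPM in Cd6-/- cells and 68.7, 82.2 and 99.9 CPM in WT cells. The transcript was therefore missing from double-knockout cells alone among the 4 genotypes, and its loss came together with that of Cd6 in this comparison, so that effects of the 2 losses cannot be told apart. The fitted change was -12.79 ± 0.40 (log2, SE; adjusted p = 3.36e-41), a value that depends on the small count added to avoid zeros.

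Slc15a3 and Tmem132a lie just beyond Cd6, outside the interval between the guides. Slc15a3, an endolysosomal transporter of histidine and peptides, begins 9.67 kb from Cd6 at chr19:10839727-10859362. It stood at 0, 0.12 and 0 CPM in Cd5-/-Cd6-/- cells against 1.12, 1.71 and 1.63 CPM in Cd5-/- cells, or 4 counts against 151 (ratio 36.5, counting interval 14 to 136). Tmem132a, a transmembrane protein gene 27.8 kb from Cd6 at chr19:10857822-10869940, stood at 0.0889, 0.0598 and 0 CPM against 1.3, 1.81 and 1.69 CPM, or 5 counts against 161 (ratio 31.1, interval 13.1 to 97.2). Both genes were low in every genotype. In Cd6-/- cells Slc15a3 was at 1.33, 1.8 and 3.84 CPM and Tmem132a at 1.85, 1.71 and 1.02 CPM, and in WT cells they lay between 0.7 and 1.45 CPM. Thus, only the double-knockout libraries were near 0 for these genes at 20 h. The 2 genes are on opposite strands and overlap by 1541 bases, and whether the counting used strand is not given in the sources used here, so their reads cannot be told apart with certainty.

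The other neighbours of the locus gave no such difference. Vps37c, an ESCRT subunit gene 2.49 kb from the other end of the pair, next to Cd5, differed by -0.08 ± 0.17 (log2, SE). Tmem109, the next gene after Tmem132a and 40.6 kb from Cd6, differed by -0.35 ± 0.17 (unadjusted p = 0.0384 and adjusted p = 1 by edgeR's quasi-likelihood test). Prpf19, a splicing factor gene 65.2 kb away, differed by -0.10 ± 0.14. Of 77 genes tested within 1 Mb of Cd5 and Cd6, 5 were called (6.49%), all lower in Cd5-/-Cd6-/- cells (0.0217% of all genes were). These 5 include Cd5, Cd6 and A430093F15Rik, which are targeted or between the guides, so that share was partly set by the alleles. Outside the guides only Slc15a3 and Tmem132a were called. The same 5 were the only ones called among 144 genes within 2 Mb. Farther along the chromosome Carnmt1 was the only other called gene among 438 within 10 Mb, and 1110059E24Rik was the only called gene among the 487 beyond that distance. On all other chromosomes together, 2 of 31365 genes were called (0.00638%). So 7 of the 9 called genes were on chromosome 19, among them the 3 genes with exons between the guides.

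**Figure D2:**
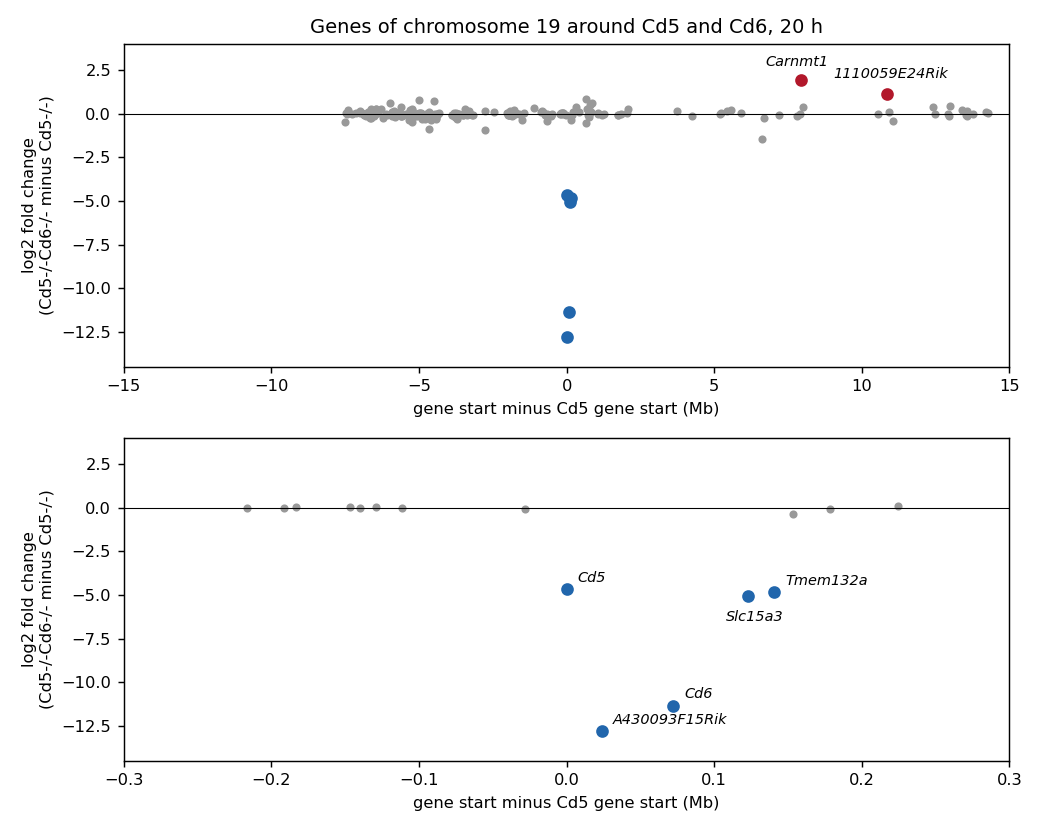
Log2 fold change between Cd5-/-Cd6-/- and Cd5-/- cells at 20 h for genes of chromosome 19 averaging 10 counts or more in the 6 libraries, against the distance of their start from that of Cd5 in Mb, within 15 Mb (top) and 0.3 Mb (bottom). Called genes are blue (lower) or red (higher), and the 5 lower ones lie within 1 Mb, whereas Carnmt1 and 1110059E24Rik lie 7.95 and 10.9 Mb away.

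The remaining 4 genes had a different pattern across genotypes, with Cd5-/- cells rather than double-knockout cells standing apart. Carnmt1, the carnosine N-methyltransferase (chr19:18670764-18707200), was at 12.7, 14 and 13.1 CPM in Cd5-/-Cd6-/- cells and at 3.28, 3.52 and 3.66 CPM in Cd5-/- cells, a difference of 1.92 ± 0.28 (log2, SE; adjusted p = 1.03e-05). Its level was 10.8, 12.8 and 13.8 CPM in Cd6-/- cells and 11.6, 13.4 and 12.4 CPM in WT cells, which is the range of the double-knockout cells. Relative to WT, Cd5-/- cells differed by -1.84 (adjusted p = 9.79e-05) and Cd5-/-Cd6-/- cells by 0.09 (adjusted p = 1).

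1110059E24Rik, a protein-coding gene at chr19:21581202-21652976 known by a clone name, was at 50.9, 50.2 and 67 CPM in Cd5-/-Cd6-/- cells and at 24.3, 22.9 and 29.6 CPM in Cd5-/- cells. The difference was 1.13 ± 0.18 (log2, SE; adjusted p = 0.000112). Cd6-/- and WT cells lay between 43.4 and 69.7 CPM, again at the level of the double-knockout cells. Without Cd5-/-Cd6-/- replicate 3 the difference was 0.98, just under the limit of a 2-fold change (adjusted p = 0.00597).

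Wdfy1, which encodes an endosomal protein with WD40 repeats and a FYVE domain (chr1:79702262-79776143), was at 1.81, 1.44 and 0.994 CPM in Cd5-/-Cd6-/- cells and at 17.2, 25.8 and 7.61 CPM in Cd5-/- cells (-3.56 ± 0.47, log2 ± SE; adjusted p = 3.44e-07). Cd6-/- cells had 1.23, 1.35 and 1.28 CPM. WT cells had 1.35, 8.07 and 1.48 CPM, so that 1 WT library reached the level of the lowest Cd5-/- library. Gm8116, a processed pseudogene (chr9:78820638-78821838), was at 0.0593, 0.299 and 0.147 CPM in Cd5-/-Cd6-/- cells against 8.71, 9.29 and 10.8 CPM in Cd5-/- cells (-5.79 ± 0.70, adjusted p = 2.32e-08). In Cd6-/- and WT cells it did not exceed 0.457 CPM. As Gm8116 is a copy of another gene, its reads may be shared with the parent gene, and its level is uncertain in that respect. Both genes were higher in Cd5-/- than in WT cells (Wdfy1 by 2.22, adjusted p = 0.0118, and Gm8116 by 5.45, adjusted p = 1.87e-07), whereas Cd5-/-Cd6-/- cells differed from WT by -1.34 and -0.34 (adjusted p = 1 for each). The comparisons with WT share the Cd5-/- or double-knockout libraries with the main comparison and are given side by side, not as independent evidence.

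**Figure D3:**
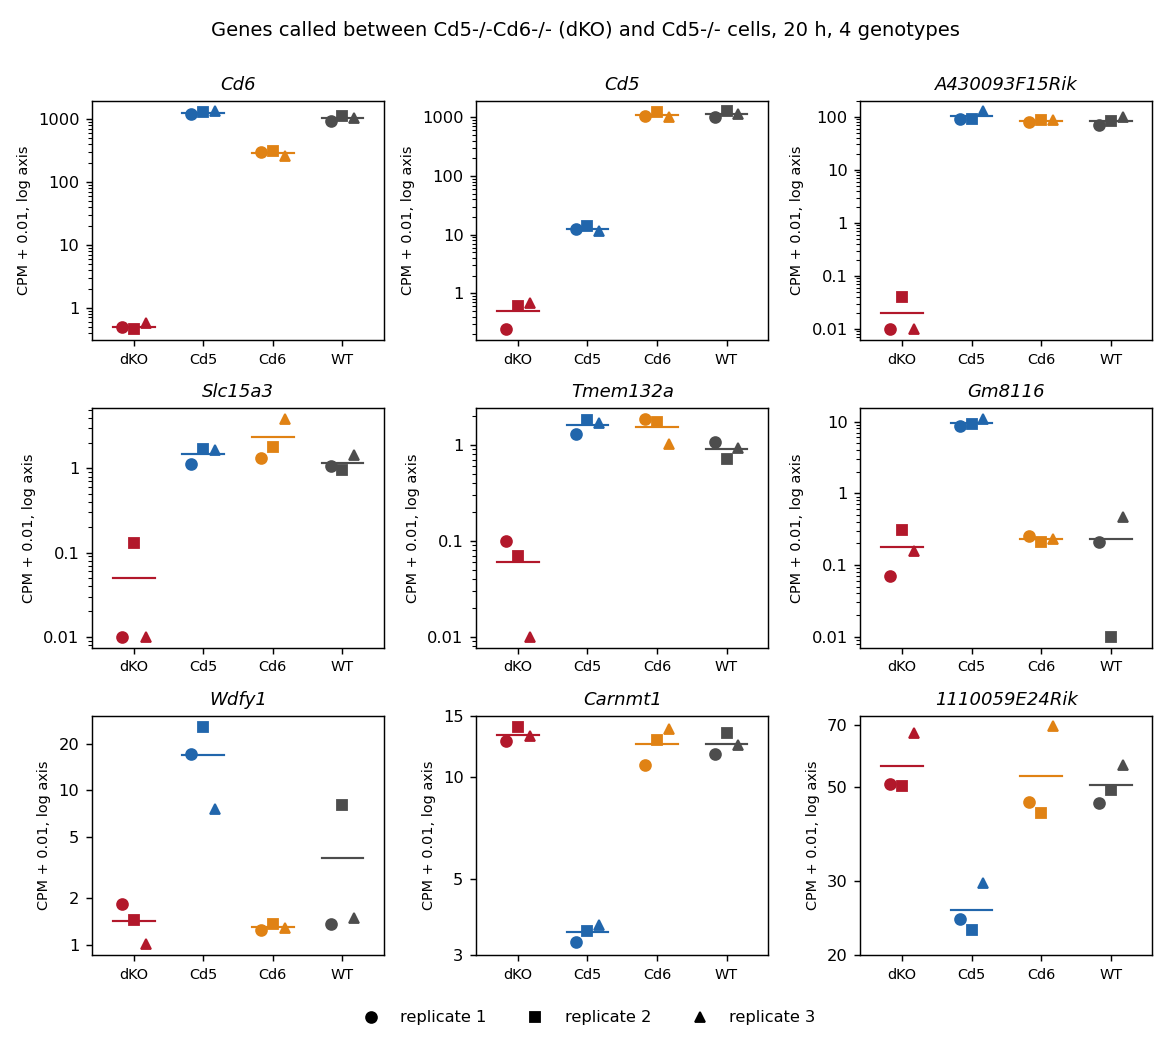
CPM + 0.01 (log axis) of the 9 called genes at 20 h in Cd5-/-Cd6-/- (dKO), Cd5-/-, Cd6-/- and WT cells, 1 symbol per library with the shape giving the replicate number and a bar at the mean. For Cd6, Cd5, A430093F15Rik, Slc15a3 and Tmem132a the double-knockout libraries are the lowest of the 4 genotypes, whereas for Gm8116, Wdfy1, Carnmt1 and 1110059E24Rik the Cd5-/- libraries stand apart from the double-knockout libraries and most others.

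Libraries of the same replicate number deviated together. The correlations across genes of their deviations from the genotype means were 0.648, 0.417 and 0.663 for numbers 1, 2 and 3 (across genes, which are not independent replicates). Between different numbers the mean was -0.276. The deviations of the libraries of a genotype sum to 0, so this negative value largely follows from the others and is no separate reference. With the replicate number as a block in the fit of 36 libraries, 10 genes were called (0.031%), namely all 9 genes above and Trav6n-6, a TCR alpha variable segment on chromosome 14. Trav6n-6 was at 0.178, 0.269 and 0.479 CPM in Cd5-/-Cd6-/- cells and at 1.26, 1.02 and 1.09 CPM in Cd5-/- cells, with 28 and 107 counts in all. The groups did not overlap, and the difference of -1.87 had an adjusted p of 0.149 without the block and 0.0428 with it (edgeR's quasi-likelihood test). Variable segments of this family are near-identical to each other, so that the authors' counting could split their reads.

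A block fitted in the 6 libraries alone called 38 genes, 24 higher (0.101%) and 14 lower (0.0587%). Its estimate of the spread was the same trend for every gene, so that a gene's own scatter did not enter. Among the genes it added, Gm2682, a long non-coding RNA of chromosome 15, was at 10.3, 8.94 and 5.93 CPM in Cd5-/-Cd6-/- cells and at 0, 0.0248 and 3.49 CPM in Cd5-/- cells. Its range was 7.31 to 16.2 CPM in Cd6-/- and WT cells, so here too Cd5-/- cells were the lowest. In the fit of 36 libraries its difference was 2.77 ± 0.88 (log2, SE; adjusted p = 1), and without Cd5-/- replicate 3 it was 8.74 (adjusted p = 0.000155). Pros1, the gene for the vitamin K-dependent protein S, was at 19.6, 55.6 and 66 CPM against 15.4, 35 and 17.3 CPM, higher in the double-knockout library of each number, but with overlapping groups (1.06 ± 0.39, adjusted p = 1). Gm2682 and Pros1 were chosen for mention after their values were seen.

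Gene lists for T cell functions were then read member by member. The lists comprised 302 genes, and none was called, with or without the replicate block in 36 libraries, in any of the 14 functional lists or the 9 lists of cell type markers. The median difference over the 12527 genes averaging 10 counts or more in the 6 libraries was -0.01 (log2), and medians of lists are given for members above that limit.

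Ligands and intracellular partners of CD6 and CD5 had a median difference of -0.03 (23 genes, range -0.20 to 0.24). Alcam, which encodes CD166, the CD6 ligand that T cells also express, was at 38.3, 49.2 and 31 CPM in Cd5-/-Cd6-/- cells and at 33.9, 37.9 and 28.7 CPM in Cd5-/- cells (0.24 ± 0.22, log2 ± SE). Cdcp1, which encodes the other ligand, was near the limit of detection, at 0.147 to 0.448 against 0.0991 to 0.229 CPM. Lcp2, the adaptor SLP-76, which binds the CD6 tail, was at 484, 587 and 502 CPM against 459, 556 and 467 CPM. The groups overlapped for Alcam and for Lcp2. The 95% interval of the difference lay within a 2-fold change for all 23 genes, that is, between -0.55 and 0.69 at the extremes.

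Genes of the TCR complex, its coreceptor and the proximal kinases had a median difference of -0.02 (14 genes, range -0.14 to 0.20), with every interval inside a 2-fold change. Cd3e was at 233, 233 and 204 CPM against 229, 228 and 224 CPM. Zap70, the kinase that docks on the phosphorylated TCR, was not in this list but among the 23 ligands and partners above. It was at 499, 485 and 506 CPM against 519, 518 and 593 CPM. Its 3 double-knockout libraries lay below the 3 Cd5-/- libraries, but the difference was -0.13 ± 0.14 (log2, SE; adjusted p = 1 by edgeR's quasi-likelihood test). Zap70 was the only 1 of those 23 genes whose groups lay apart, where 2.33% of all genes lay apart with double-knockout cells lower. In the TCR list itself the groups overlapped for every gene.

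Activation markers and early transcription factors had a median of 0.02 (15 genes). Cd69, an early activation antigen, was at 299, 354 and 346 CPM against 323, 373 and 401 CPM, Nr4a1, a reporter of TCR signal strength, at 206, 282 and 266 CPM against 245, 268 and 249 CPM, and Myc at 519, 687 and 556 CPM against 549, 674 and 516 CPM. The groups overlapped for each of these genes. The member with the largest difference was Egr2, a zinc-finger factor induced by TCR signals, at 0.44 ± 0.28 (95% interval -0.12 to 1.00).

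Cytokine and chemokine genes had a median of 0.03 (12 genes) and were less precisely measured, since only 7 of the 12 intervals lay within a 2-fold change. Il2 was at 81, 239 and 286 CPM against 113, 295 and 240 CPM, and Ifng at 2.02, 28.9 and 15.6 CPM against 2.11, 20 and 6.61 CPM. In both genotypes replicate 1 was the lowest for both cytokines. Il10, which encodes an anti-inflammatory cytokine, had the smallest unadjusted p of the list (0.00175, adjusted p = 1), at 0.148, 0.329 and 0.515 CPM against 0, 0.0743 and 0.0572 CPM. These levels are close to that of 3 counts, so the fold change is poorly determined. Checkpoint receptors and signal brakes had a median of -0.03 (19 genes). Pdcd1, which encodes PD-1, was at 273, 283 and 279 CPM against 239, 288 and 317 CPM, and Ctla4 at 20.8, 9.21 and 10.6 CPM against 23.4, 12.4 and 17.8 CPM (-0.40 ± 0.33).

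Genes of growth and division followed. The 27 DNA replication genes lay between -0.12 and 0.13 (median -0.03), every interval lying within a 2-fold change, with Pcna, the polymerase clamp, at 560, 523 and 678 CPM against 570, 557 and 713 CPM. Of the 27 genes, 10 (all-gene share 17.8%) were lower in the double-knockout library of every replicate number, among them Mcm5 and Mcm7, subunits of the replicative helicase (-0.12 each). Mitosis genes had a median of 0.14, and 19 of 20 were above 0, the largest being Ccnb2, a mitotic cyclin, at 0.31 ± 0.35. They were less precisely measured, 17 of the 20 intervals lying within a 2-fold change. Of the 20 genes, 10 were higher in the double-knockout library of every number, where 10.8% of all genes were. The mean log2(CPM + 1) of the list was 5.48, 5.46 and 5.31 in Cd5-/-Cd6-/- cells and 5.40, 5.42 and 5.00 in Cd5-/- cells, so that replicate 3 held most of the difference. Ribosome biogenesis genes lay between -0.05 and 0.09 (19 genes, median 0.01).

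Metabolic lists differed little. Glycolysis and nutrient transport genes had a median of -0.05 (13 genes), with Slc2a1, the glucose transporter GLUT1, at 140, 162 and 175 CPM against 147, 168 and 210 CPM. The 14 genes of cholesterol and fatty acid synthesis were all below 0 (median -0.13, range -0.51 to -0.03), and 11 of them were lower in the double-knockout library of every number, where 17.8% of all genes were. None passed the adjusted test. Scd2, a fatty acid desaturase, was at 138, 102 and 102 CPM against 219, 133 and 136 CPM (-0.51 ± 0.18, unadjusted p = 0.00633, adjusted p = 1), and Sqle, the squalene epoxidase of cholesterol synthesis, at 142, 133 and 128 CPM against 162, 140 and 148 CPM (-0.16 ± 0.17). The groups overlapped for both genes. Members of 1 pathway are not independent of each other.

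Interferon-stimulated genes had a median of 0.22, with 14 of 16 above 0. At an unadjusted p below 0.05 were Rsad2, Oasl2, Rtp4 and Irf7, all higher in Cd5-/-Cd6-/- cells and none of them called. Rsad2, the antiviral protein viperin, was at 0.119, 0.777 and 0.331 CPM against 0.0449, 0.0743 and 0.0572 CPM (2.67 ± 0.74, adjusted p = 0.868). It was called without Cd5-/-Cd6-/- replicate 1 (3.13, adjusted p = 0.0198) and without the doubted 0 h libraries (2.70, adjusted p = 0.0202). Irf7, an interferon regulatory factor, was at 1.19, 3.98 and 3.9 CPM against 0.584, 2.5 and 1.23 CPM (0.99 ± 0.37, adjusted p = 1). The mean log2(CPM + 1) of the list was 2.82, 3.59 and 3.47 against 2.84, 3.31 and 3.10, so it was nearly level in number 1 and higher in the others. Of the 16 genes, 7 were higher in the double-knockout library of every number, where 10.8% of all genes were. In every number 1 gene was lower, where 17.8% of all genes were. Naive state genes (median -0.01, 14 genes), survival genes (0, 10 genes) and adhesion and homing genes (0.02, 16 genes) lay close to the median of all genes.

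**Figure D4:**
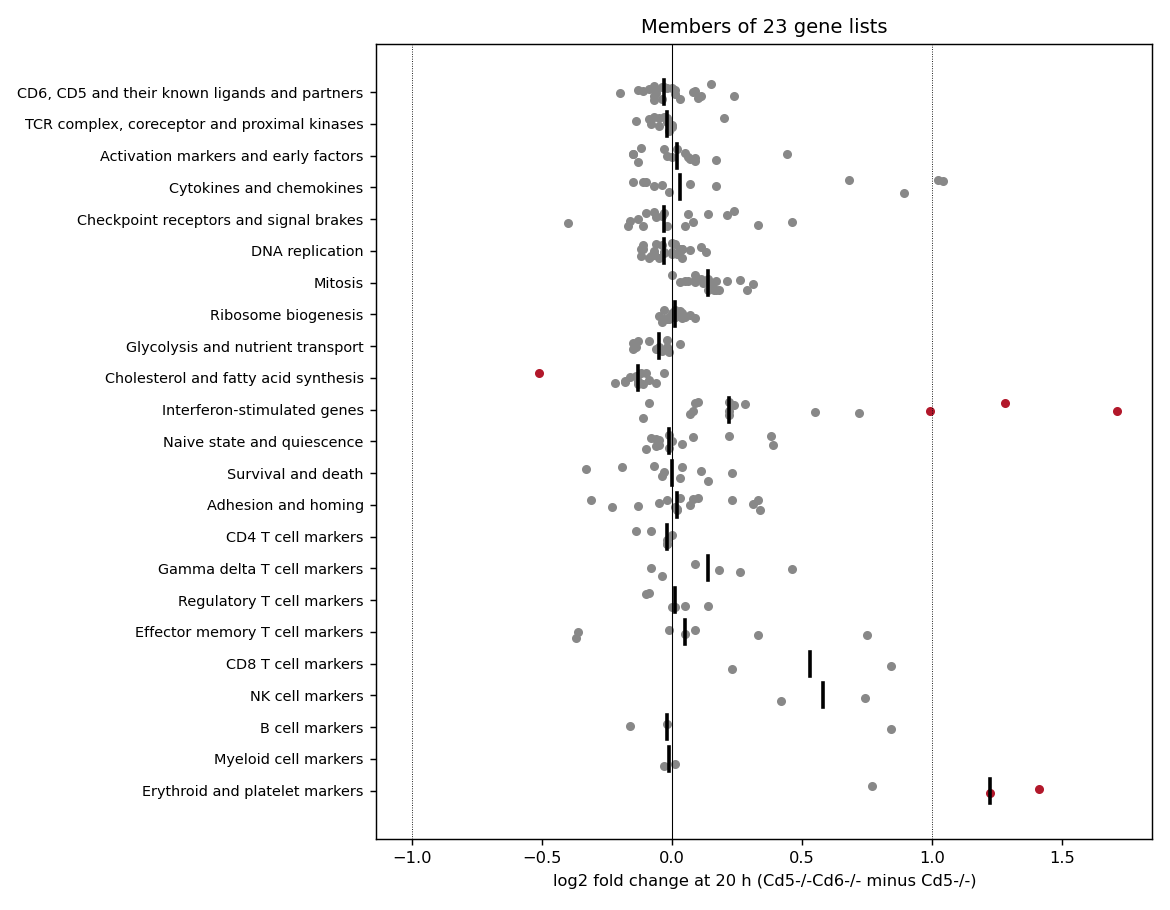
Log2 fold change at 20 h (Cd5-/-Cd6-/- minus Cd5-/-) of the members of 23 gene lists that averaged 10 counts or more, 1 point per gene, red at an unadjusted p below 0.05, with a bar at the median of each list and dotted lines at a fold of 2. The medians of the functional lists lie between -0.13 and 0.22, and no point is a called gene.

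The cells carried the markers of CD4+ T cells in both genotypes. Cd4 was at 742, 631 and 490 CPM in Cd5-/-Cd6-/- cells and at 759, 704 and 587 CPM in Cd5-/- cells, and the 6 markers of the list had a median difference of -0.02. Regulatory T cell markers had a median of 0.01 (6 genes), with Foxp3 at 6.46, 5.41 and 3.2 CPM against 7.28, 5.75 and 2.26 CPM, and effector memory markers one of 0.05 (7 genes). Gamma delta T cell markers summed to 21.5 to 29.4 against 23.2 to 25.3 CPM (median 0.14, 6 of 12 members above 10 counts).

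Markers of other lineages were low, apart from immunoglobulin heavy chain RNA. Cd8a and Cd8b1 summed to 21 to 23.2 against 15.9 to 19.2 CPM, and the 6 NK cell markers to 6.25 to 25.6 against 7.86 to 17.7 CPM. The 10 B cell markers summed to 314 to 382 against 312 to 407 CPM, nearly all of it from Ighm, while Cd79a, a subunit of the B cell receptor, did not exceed 0.269 CPM in either genotype. The 11 myeloid markers summed to 64 to 95.9 against 66.4 to 93.2 CPM, mostly from Cst3, and S100a9 was at 0 in all 6 libraries. Erythroid and platelet markers, led by the beta-globin gene Hbb-bs, summed to 5.6, 33.7 and 33.1 CPM against 2.11, 20.5 and 7.35 CPM. They were higher in the double-knockout library of every number, and number 1 was the lowest in both genotypes, as it was for Irf7. Hbb-bs differed by 1.22 ± 0.55 (unadjusted p = 0.0294, adjusted p = 1 by edgeR's quasi-likelihood test). The part of traces of other cells in the small differences of the lists was not tested.

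An activation score placed the 6 libraries on the course of the WT response. It was the mean log2 CPM of 2999 genes induced minus that of 3525 genes repressed in WT cells between 0 and 20 h in the other experiment of the series, so its genes were not chosen on the libraries compared. The score was 3.34, 3.51 and 3.69 in Cd5-/-Cd6-/- cells (3.51 ± 0.18, SD, n = 3) and 3.35, 3.54 and 3.67 in Cd5-/- cells (3.52 ± 0.16, SD, n = 3). The means differed by -0.01 (p = 0.9 by a two-sided exact permutation test that cannot go below 0.1), on a scale where WT cells of the same experiment rose by 4.37 between 0 and 20 h. Differences within a number were -0.01, -0.04 and 0.03 (exact sign-flip test, p = 0.75, smallest possible 0.25). Cd6-/- and WT cells at 20 h scored 3.34 ± 0.18 and 3.40 ± 0.16 (SD, n = 3 each).

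**Figure D5:**
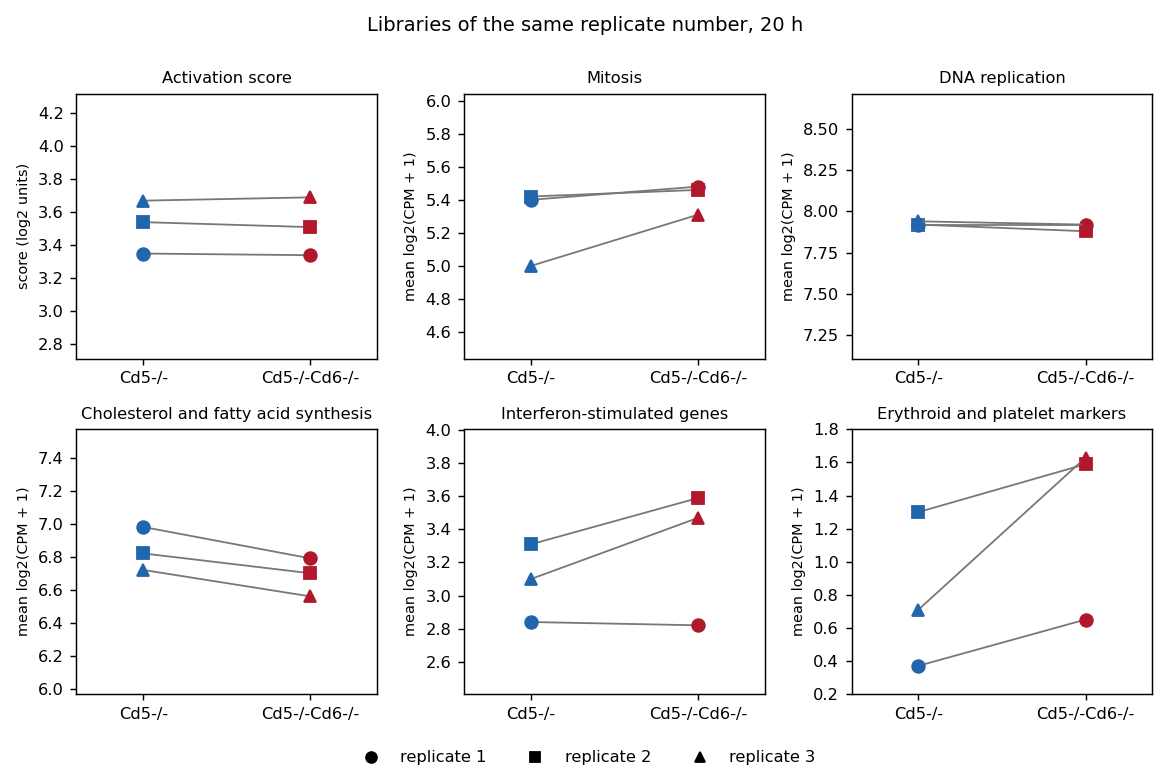
Activation score (log2 units) and mean log2(CPM + 1) of 5 gene lists in Cd5-/- (blue) and Cd5-/-Cd6-/- (red) libraries at 20 h, lines joining libraries of the same replicate number; every panel spans 1.6 units. The score lines are level, the cholesterol and fatty acid synthesis lines all descend, and the mitosis and erythroid lines all rise, with number 3 rising most.

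How large a difference could have been missed was read from the width of the intervals. Of the same 12527 genes, 10414 (83.1%) had a 95% interval lying wholly within a 2-fold change in either direction, and 8121 (64.8%) within a 1.5-fold change. Where the average was 100 counts or more, 98.8% and 84.8% did. For the remaining genes the interval reached beyond a 2-fold change.

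At 4 h the same genotypes were compared in separate libraries, and 187 genes were called (0.579%), of which 177 (0.548%) were higher in double-knockout cells. The fit with the replicate block called 326 (1.01%). The count rested heavily on single libraries, being 25 without Cd5-/- replicate 1, 63 without Cd5-/-Cd6-/- replicate 2 and 450 without Cd5-/-Cd6-/- replicate 1. Of the 9 genes called at 20 h, 6 were called at 4 h in the same direction, namely Cd6, Cd5, A430093F15Rik, Gm8116, Wdfy1 and Carnmt1. Gm8116 was at 0.242, 0.201 and 0.131 CPM in double-knockout cells against 6.18, 5.14 and 6.28 CPM, and Carnmt1 at 8.7, 7.57 and 11.2 CPM against 2.62, 2.64 and 4.44 CPM. Thus, the differences of these genes were present at both times. The other 3, 1110059E24Rik, Slc15a3 and Tmem132a, were not called at 4 h. 1110059E24Rik was at 14.4, 12.5 and 16 CPM in double-knockout cells against 9.71, 10.8 and 13.1 CPM (0.35, adjusted p = 0.93), and the groups overlapped.

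Slc15a3 at 4 h was at 2.04, 5.77 and 3.02 CPM in Cd5-/-Cd6-/- cells and at 1.74, 2.47 and 1.62 CPM in Cd5-/- cells (0.89, adjusted p = 0.836). Its RNA was thus found in double-knockout libraries at 4 h and was near 0 there at 20 h. The mean log2(CPM + 1) of the myeloid markers in double-knockout libraries was 1.81, 2.83 and 2.72 at 4 h and 0.76, 0.82 and 0.81 at 20 h. In Cd5-/- libraries it was 1.52, 2.03 and 1.89 at 4 h and 0.73, 0.85 and 0.81 at 20 h. The part of other cells in the Slc15a3 reads was not tested. The change in the genotype difference of Slc15a3 between the times, -5.93 ± 0.86 (log2, SE; adjusted p = 5.22e-05), was the only one called by edgeR's quasi-likelihood test of the difference (0.0031% of genes). With the replicate block 15 genes (0.0465%) were called, all with a lower difference at 20 h than at 4 h, Tmem132a among them (adjusted p = 0.0174, and 0.0577 without the block). The count was also high, at 47, without Cd5-/-Cd6-/- replicate 1 of 4 h. Tmem132a was low in both genotypes at 4 h, at 0.0328 to 0.376 against 0.117 to 0.512 CPM. Cd5 was at 94.7, 150 and 61.6 CPM in Cd5-/- cells at 4 h, above the 20 h level, and at most 0.525 CPM in double-knockout cells.

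The genes called higher at 4 h were mostly near the common level in the 20 h libraries. The 177 genes had a median difference of 1.58 at 4 h, where they were selected, and of 0.07 at 20 h, where 110 of them were above 0. Over the genes averaging 10 counts or more at 20 h the median was -0.01. Selection by the 4 h values raises the 4 h median, so the fall between these medians does not measure a change over time. At 4 h they included 6 of 20 mitosis genes, such as Aurkb, a mitotic kinase (1.67 at 4 h and 0.05 at 20 h), 2 of 20 interferon-stimulated genes, Rsad2 and Oasl2, and 5 of 10 B cell and 3 of 6 erythroid and platelet markers, where 0.548% of all genes were called higher. With the replicate block these counts were 9, 7, 10 and 3, where 0.963% of all genes were called higher. The summed B cell markers at 4 h were 423 to 594 CPM in Cd5-/-Cd6-/- cells against 190 to 234 CPM, and the erythroid and platelet markers 813 to 3150 against 180 to 593 CPM. At 20 h the B cell sums of the genotypes overlapped. The part of these markers in the 4 h count was not tested.

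Finally, the effect of losing CD6 in cells without CD5 was set against that of losing CD6 in cells with CD5 (Cd6-/- against WT at 20 h), 4 groups that share no library. In Cd6-/- cells Cd6 RNA was lower but still present, at 304, 315 and 257 CPM against 937, 1130 and 1040 CPM in WT, the allele of that line lacking only the start of the gene. The 2 effects differed for 10 genes (0.031%). The differences were -12.79 for A430093F15Rik, -9.51 for Cd6, -4.62 for Cd5, -6.02 for Slc15a3, -5.61 for Tmem132a, -5.84 for Gm8116 and 1.92 for Carnmt1 (adjusted p 0.0171 or lower for each by edgeR's quasi-likelihood test). All 7 were genes called in the main comparison, whose libraries all enter this test, so their return is no separate support. For Cd6 and A430093F15Rik the difference follows from the different deletions of the lines. For Carnmt1 and Gm8116 the Cd5-/- libraries stood apart, so loss of CD6 and differences between the lines cannot be told apart. The other 3, n-R5-8s1, CT010467.1 and Gm24601, were high in Cd6-/- replicate 3 alone, CT010467.1 being at 16700 CPM there and at 205 to 771 CPM in the other 11 libraries of 20 h. None of the 3 was called without that library (adjusted p = 1). With the replicate block 10 genes were again called (0.031%), 1110059E24Rik (1.07, adjusted p = 0.00672) taking the place of Gm24601 (adjusted p = 0.119). No member of the 23 gene lists was called in this test, and the medians of the functional lists lay between -0.23, for interferon-stimulated genes, and 0.09, for mitosis genes.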

How the data were processed

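Read counts per gene of 36 libraries, and of the WT libraries of the other experiment for the activation score, were used as deposited. The authors made them with bcl2fastq (2.17.1.14), STAR and featureCounts on GRCm38, and used DESeq2 for their own comparisons. The annotation release and the use of strand and of multi-mapping reads are not given in the sources used here. Of 55385 gene identifiers, 55144 matched a name. Gene length was used only as annotation, and 0 sample columns were left unused.

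Genes with at least 1 read over the 36 libraries (32290) were fitted with a coefficient per genotype and time using edgeR 4.0.16 (R 4.3.3, limma 3.58.1): TMM factors, quasi-likelihood F test, Benjamini-Hochberg adjustment over all genes. Genes were called at an adjusted p below 0.05 and a fold above 2. Standard errors are the log2 fold change divided by the square root of F. Where F was too close to 0 for this ratio, the main fit's intervals used a Wald standard error instead. CPM used TMM-scaled totals. Alternatives were DESeq2 1.42.0, RLE factors, library totals, filterByExpr (16143 genes), the replicate block, only the groups compared, and leaving out libraries. The fit was tested on simulated counts.

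Replicate numbers come from the labels. Deviations of same-numbered libraries correlated above 0.1 in each pair at 20 h (above) and at 4 h (0.369, 0.531 and 0.489), so the numbers were taken as pairs. For Cd6-/- and WT libraries the values were 0.561, 0.0983 and 0.631.

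The comparison and gene lists were chosen with earlier results of these data known. Genes named are those targeted or between the guides, those called with or without the block or by a difference test, and of each list the first 2 members and the 2 with the smallest p. Other list members and the genes near Cd5 and Cd6 that were not called were chosen after their values were seen. Intervals of count ratios are exact binomial at 95% and cover counting error only. Prior count for log2 CPM was 2. Some genes are not reported here.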

Additional observations from a re-analysis of the deposited data

Results flagged for a closer look

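Slc15a3 is listed because its difference between Cd5-/-Cd6-/- and Cd5-/- cells itself differed between 20 h and 4 h, by -5.93 ± 0.86 (log2, SE; adjusted p = 5.22e-05, edgeR's quasi-likelihood test of the interaction). Myeloid markers were higher at 4 h than at 20 h in both genotypes, and the part of other cells in its 4 h reads was not tested.

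For 10 genes the effect of losing CD6 at 20 h differed between cells without and with CD5 by the same kind of test. The differences were -12.79 for A430093F15Rik (adjusted p = 7.16e-37), -9.51 for Cd6 (8.94e-29), -4.62 for Cd5 (9.29e-09), -6.02 for Slc15a3 (1.29e-05), -5.61 for Tmem132a (2.45e-05), -5.84 for Gm8116 (0.00275) and 1.92 for Carnmt1 (0.0171). The values were -6.9 for n-R5-8s1 (0.00035), -4.06 for CT010467.1 (0.0061) and -4.93 for Gm24601 (0.0245), which became -2.7, 0.35 and -0.58 (adjusted p = 1 for each) when Cd6-/- replicate 3 was left out. The 7 other genes were still called without that library. The Cd6-/- and Cd5-/-Cd6-/- lines carry different deletions, and the Cd5-/- line was made separately by gene targeting and backcrossing. The alleles, other differences between the lines and the absence of CD5 therefore cannot be told apart in this test. For Carnmt1 and Gm8116 it was the Cd5-/- libraries that stood apart from those of the other genotypes.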

How the results depend on the processing

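At 20 h the 9 genes were all called under every alternative except 1, 1110059E24Rik being at 0.98 (adjusted p = 0.00597) without Cd5-/-Cd6-/- replicate 3. Of 126 values of these genes under 14 alternatives, 125 kept direction and side of the threshold. The count was 14 without the doubted 0 h libraries and 38 with the replicate block in the 6 libraries alone, and 8 to 13 leaving out 1 library at a time. DESeq2 and filterByExpr each gave 11. Of 1316 values of 94 other genes, members of the lists or called by an alternative or a difference test, 19 passed the threshold. All 19 kept the direction of the main fit. Directions were not compared for values that were called in neither fit.

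At 4 h (187 genes) the count was 326 with the replicate block, 121 with RLE factors, 108 with library totals, 17 with filterByExpr, 84 with DESeq2, 328 without the doubted libraries, 538 with the block in the groups compared, and 25 to 450 leaving out 1 library. The difference between times (1 gene) gave 15 with the replicate block, 0 with filterByExpr, 2 with DESeq2, 23 without the doubted libraries, 2 in the groups compared alone, 155 there with the block, and 1 to 47 leaving out 1 library, the highest without Cd5-/-Cd6-/- 4 h replicate 1. The difference between the effects of CD6 (10 genes) gave 5 with filterByExpr, 6 with DESeq2, 10 with the replicate block and 21 with the block in its groups. List members called (0) became 1 without the doubted libraries (Rsad2), 6 with the block in the 6 libraries (Hbb-bs, Hba-a1, Irf7, Oasl2, Rtp4 and Il13), and 0 to 1 leaving out 1 library. The activation score and the 5 genes near Cd5 and Cd6 kept their values within the spread. The cause of these shifts was not tested; filterByExpr tests fewer genes and leaving out a library uses fewer samples. With 3 libraries per genotype, a gene at few counts can change by more than 2-fold without being called.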
